A study of Homo sapiens with 6 samples.

Results

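Known regulatory and imprinted long noncoding RNAs (lncRNAs) were followed in RNA-seq of DLD1 colorectal cancer cells. The 10 lncRNA genes chosen by name were MALAT1, NEAT1, HOTAIR, HOTTIP, MEG3, H19, KCNQ1OT1, PVT1, CCAT1 and LINC00511. Of these, 9 were matched by GENCODE symbol to an Ensembl gene among the 58884 genes of the count table, and CCAT1 is not analysed here. A total of 7 passed the filter on low counts, among 16059 tested genes of all kinds and 1511 tested lncRNA genes. HOTAIR and MEG3 did not pass it.

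DLD1 parental cells carry a PIK3CA helical domain mutation beside a wild-type allele, a feature that both groups share. In p85β KR-AA cells, below called mutant cells, the K477A and R478A changes were knocked into PIK3R2, the gene for p85β, by CRISPR/Cas9 and homologous recombination, which replaces basic residues of its predicted nuclear localization sequence. The comparison of 3 parental with 3 mutant libraries asks how gene expression differs when this sequence of p85β is changed. The knock-in cells were isolated as clones, and the labels do not say which clone a library came from, nor whether libraries came from separate cultures, so that p-values measure only the spread between these libraries, which may be technical, and clone and mutation cannot be told apart. Counts per gene do not show the amino acid changes themselves. Library totals were 20301932 to 20873475 counts for parental and 20301396 to 26712816 counts for mutant cells. CPM is the count scaled to the library total multiplied by a factor from the trimmed mean of M-values (TMM). These factors were 0.677 to 0.777 for parental and 1.35 to 1.41 for mutant libraries, so the same count gives a lower CPM in mutant cells. A floor of 3 counts corresponds to 0.0818 to 0.218 CPM, which covers counting error only.

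Most lncRNAs are transcribed by RNA polymerase II and act as RNA, without being translated. MALAT1 is retained in nuclear speckles, and NEAT1 is the scaffold on which paraspeckles assemble. HOTAIR and HOTTIP are transcribed from the HOXC and HOXA clusters and are known as partners of chromatin modifiers. H19, MEG3 and KCNQ1OT1 are imprinted, meaning that they are transcribed from the copy inherited from 1 parent, and KCNQ1OT1 silences neighbouring genes on its own chromosome. PVT1 and CCAT1 lie near MYC, PVT1 and LINC00511 are often raised in tumours, and LINC00511 lies in the region of SOX9.

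The start regions of MALAT1, HOTTIP and H19 are printed because these genes represent the nuclear body, HOX and imprinted groups and because the fold change of H19 lay on the other side of 0. Each runs from 250 bases before to 50 bases after a start site in RefSeq (GRCh38.p14). The MALAT1 region is chr11:65497488-65497787 on the plus strand, the HOTTIP region is chr7:27200171-27200470 on the plus strand and the H19 region is chr11:2001217-2001516 on the minus strand. Capitals mark the GC box GGGCGG and the CCAAT box CCAAT, each on either strand. In HOTTIP, 1 CCAAT box read on the other strand adjoins a GC box.
MALAT1: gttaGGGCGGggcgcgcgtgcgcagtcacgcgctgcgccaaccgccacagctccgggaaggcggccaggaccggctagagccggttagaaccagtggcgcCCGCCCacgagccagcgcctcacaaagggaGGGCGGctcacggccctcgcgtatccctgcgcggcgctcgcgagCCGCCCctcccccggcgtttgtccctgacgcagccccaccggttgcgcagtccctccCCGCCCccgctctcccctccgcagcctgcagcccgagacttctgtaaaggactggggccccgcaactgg
HOTTIP: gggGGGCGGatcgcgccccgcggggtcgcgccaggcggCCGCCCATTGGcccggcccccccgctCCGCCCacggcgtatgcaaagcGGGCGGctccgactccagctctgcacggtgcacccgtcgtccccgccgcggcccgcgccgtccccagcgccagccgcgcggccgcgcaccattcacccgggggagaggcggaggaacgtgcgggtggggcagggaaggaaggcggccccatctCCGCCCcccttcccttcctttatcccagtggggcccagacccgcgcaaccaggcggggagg
H19: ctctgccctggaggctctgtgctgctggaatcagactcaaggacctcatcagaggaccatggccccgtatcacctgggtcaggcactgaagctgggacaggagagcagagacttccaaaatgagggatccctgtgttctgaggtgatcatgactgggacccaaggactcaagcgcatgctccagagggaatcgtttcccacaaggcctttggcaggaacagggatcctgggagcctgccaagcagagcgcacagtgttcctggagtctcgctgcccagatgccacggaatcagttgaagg

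The printed MALAT1 and HOTTIP regions held 5 GC boxes each, and the H19 region held 0. RefSeq gives MALAT1 a second start region, chr11:65498795-65499094 on the plus strand, with 0 GC boxes, 1 TATA box (TATAAA, present in 11.5% of start regions) and 14 CpG. The GC box was present in 45.0% of 35116 RefSeq start regions of this length and the CCAAT box in 34.6%. CpG dinucleotides numbered 37 in the printed MALAT1 region, 41 in HOTTIP and 6 in H19, against a median of 14 CpG over all start regions. Counts per gene do not show which start site was used. The printed H19 region therefore need not be the start of the most abundant H19 RNA. The H19 transcript is also the precursor of miR-675, whose mature forms are given with the seed, bases 2 to 8, in capitals. They share no seed.
hsa-miR-675-5p: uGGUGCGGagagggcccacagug
hsa-miR-675-3p: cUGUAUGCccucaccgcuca

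The mutant cells differed from parental cells in many genes. With a 3-fold threshold and an adjusted p-value limit of 0.01 in edgeR's quasi-likelihood test, 28.6% of tested genes passed upward and 17.6% passed downward, here called up-regulated and down-regulated, and lncRNA genes took 0.602% to 0.63% of counts in parental libraries and 1.08% to 1.15% in mutant libraries. Of 14 colon epithelial markers, 12 were above 1 CPM in every library of both groups, with CDX1 at 3 counts or fewer in both. Of 13 tested, 8 were down-regulated, keratins KRT8, KRT18 and KRT19 among them, and 2, CDH1 and CEACAM5, were up-regulated. The summed level, to which the keratins gave the most, was 58400 to 80500 CPM in parental and 9325 to 10910 CPM in mutant cells. The counts of these 13 epithelial markers depended on the processing. Scaling by library totals left 4 down-regulated and 2 up-regulated, and an offset for gene length left 6 and 1. Length and GC offsets left 2 and 1, and their median log2 fold change was then -0.67 in place of -1.66. Of 15 mesenchymal markers, 4 were above 1 CPM in every parental library and 11 in every mutant library, and their sum was 12.01 to 16.2 against 6354 to 7259 CPM. Of 12 tested, 9 were up-regulated and 0 were down-regulated, with FN1 and VIM the highest in mutant cells. In every mutant library, COL1A2, THY1 and SPARC were at 3 counts or fewer, as COL1A2 and THY1 were in every parental library. ZEB1, ZEB2, SNAI2, CDH2, COL3A1, LUM and DCN were at 3 counts or fewer in every parental library but not in every mutant library. Of 10 neuronal markers, 2 and 4 were above 1 CPM in every library, and of 5 tested, 3 (NEFL, NEFM and MAP2) were up-regulated and 0 were down-regulated. Their sum, most of it TUBB3, was 522.1 to 610.1 in parental and 342.5 to 365.0 CPM in mutant cells. NEFL and NEFM were at 3 counts or fewer in every parental library. Markers nearly silent in parental cells enter the test only through the mutant libraries, and so only as raised genes. With at least 10 counts in every library, 3 of 4 tested mesenchymal and 0 of 2 tested neuronal markers were up-regulated. Among all genes tested at that setting, 2898 of 12693 were. The part of these marker shifts in the lncRNA differences was not tested. In these bulk libraries, fewer cells of a type and less RNA per cell cannot be told apart.

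Among the 7 tested lncRNAs, NEAT1, MALAT1 and KCNQ1OT1 were up-regulated and H19 and PVT1 were down-regulated in mutant cells. HOTTIP and LINC00511 did not reach a 3-fold difference. The 3 up-regulated of 7 stand beside 28.6% of all tested genes and 29.1% of tested lncRNA genes, and the 2 down-regulated of 7 beside 17.6% of all tested genes and 211 of 1511 tested lncRNA genes. Their median log2 fold change was 1.47, against 0.32 over all tested genes and 0.36 over tested lncRNA genes. All mutant libraries lay above all parental libraries for 4 of the 7 and below them for 3, an arrangement that 47.0% and 36.5% of all tested genes showed.

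**Figure D1:**
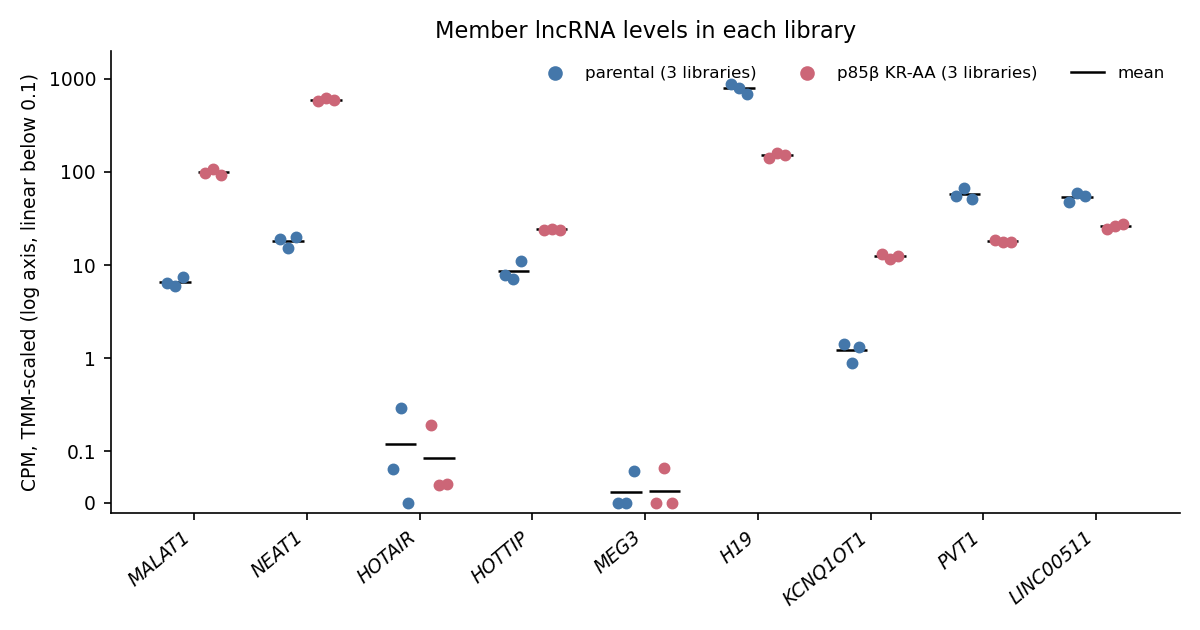
CPM of each lncRNA in the 3 parental (blue) and 3 p85β KR-AA (red) libraries, with the mean as a bar, on an axis that is logarithmic above 0.1 CPM and linear below. NEAT1 moved from 15.07 to 20.14 CPM up to 579.2 to 621.6 CPM and H19 from 679.3 to 884.1 down to 141.9 to 158.5 CPM, while HOTAIR and MEG3 stayed under 0.3 CPM in every library.

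NEAT1 (ENSG00000245532, chr11:65190245-65213011 on the plus strand of GRCh37) was the most raised of the 7. Its estimated counts were 288, 207 and 327 in parental replicates 1, 2 and 3 and 21234, 17852 and 16220 in mutant replicates 1, 2 and 3. In CPM scaled with the trimmed mean of M-values (TMM), the mean was 18.1 ± 2.68 (SD, n = 3) in parental and 597.2 ± 21.9 (SD, n = 3) in mutant cells. The 2 groups were far apart in every library. The fold change was 32.9, or 5.04 on the log2 scale with a standard error of 0.16 (edgeR, adjusted p = 1.94e-10). This change was larger than that of 95.6% of all tested genes and of 93.0% of tested lncRNA genes. By counts, NEAT1 ranked 63, 82 and 54 among lncRNA genes in the parental libraries and ranked 1 in every mutant library. It made up 0.169% to 0.248% of lncRNA counts in parental cells and 7.2% to 7.62% in mutant cells.

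MALAT1 (ENSG00000251562, chr11:65265111-65275544 on the plus strand), which lies beside NEAT1 on chromosome 11, moved the same way. It had 97, 82 and 120 counts in the parental and 3589, 3115 and 2562 counts in the mutant libraries. Its mean rose from 6.61 ± 0.73 (SD, n = 3) to 99.9 ± 7.75 CPM (SD, n = 3), with no overlap between the groups. The fold change was 15.1, or 3.92 on the log2 scale with a standard error of 0.16 (edgeR, adjusted p = 1.57e-09). Per kilobase of gene, the NEAT1 level was 0.967 to 1.14 times the MALAT1 level in parental libraries and 2.19 to 2.42 times in mutant libraries. The ratio lay on both sides of 1 in parental libraries, and NEAT1 was the higher in each mutant library.

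MALAT1 and the long form of NEAT1 end without a conventional poly(A) tail, and the kit used selects polyadenylated RNA in its standard protocol. Clustered histone genes, whose main transcripts lack such a tail as well, were read beside them. The summed level of 61 histone genes was 106.0 to 136.0 CPM in parental and 91.3 to 97.7 CPM in mutant libraries, and of 20 tested, 2 were up-regulated and 3 were down-regulated, with a median log2 fold change of 0.42. The part of poly(A) selection in the MALAT1 and NEAT1 differences was not tested. Mitochondrial genes took 2.39% to 2.7% of counts in parental and 2.74% to 3.29% in mutant libraries.

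Of 24 genes for paraspeckle and nuclear speckle proteins, all tested, 3 were up-regulated and 2 were down-regulated. That is 12.5% and 8.33%, beside 28.6% and 17.6% of all tested genes. The median log2 fold change was -0.20, which becomes 0.72 with scaling by library totals. SON, a speckle scaffold protein, rose from 17.5 ± 6.5 to 143.5 ± 1.66 CPM (SD, n = 3 each), which is 3.03 ± 0.23 (SE) on the log2 scale. SRRM2, its partner in the speckle core, rose by 1.74 ± 0.21 (SE) and TARDBP, the gene for the RNA-binding protein TDP-43, by 1.60 ± 0.15 (SE) on the log2 scale. The splicing factor gene U2AF2 fell from 719.3 ± 85.9 to 139.9 ± 11.8 CPM (SD, n = 3 each), and DAZAP1, for an RNA-binding protein of paraspeckles, from 350.5 ± 13.6 to 106.6 ± 4.77 CPM (SD, n = 3 each). SFPQ and NONO, whose proteins coat NEAT1 and hold paraspeckles together, had log2 fold changes of 0.61 ± 0.16 (SE) and 0.17 ± 0.15 (SE) and did not pass the thresholds. Without parental replicate 2, 1 gene of this list was up-regulated in place of 3, and with length and GC offsets 0 were. With scaling by library totals, 5 were up-regulated and 0 were down-regulated, and with an offset for gene length alone 2 and 0.

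Protein-coding genes close to MALAT1 and NEAT1 on chromosome 11 were read from the same fit. Within 100 kb of MALAT1, a window chosen after values had been seen, 0 of 8 tested protein-coding genes passed the thresholds upward and 5 passed them downward. That is 0.0% and 62.5%, beside 28.6% and 17.6% of all tested genes. The median log2 fold change was -1.98. MAP3K11, a kinase gene of the JNK pathway, went from 218.9 ± 22.4 to 55.9 ± 4.35 CPM (SD, n = 3 each). Within 100 kb of NEAT1, 0 of 7 were up-regulated and 2 were down-regulated, or 0.0% and 28.6%, with a median log2 fold change of -0.94. The 2 windows overlap. With scaling by library totals, 0 were up-regulated and 2 were down-regulated near MALAT1, with a median of -1.05. Near NEAT1 they were 0 and 1, with a median of -0.02. With length and GC offsets, 0 were up-regulated and 1 was down-regulated of the 8 genes near MALAT1, with a median of -0.53, and 1 was up-regulated and 0 were down-regulated of the 7 near NEAT1, with a median of -0.42.

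In the HOX clusters, HOTTIP and HOTAIR differed in level. HOTTIP (ENSG00000243766, chr7:27238194-27246878 on the plus strand) had 119, 97 and 179 counts in parental replicates 1 to 3 and 881, 697 and 659 counts in the mutant libraries. Its mean level was 8.68 ± 2.11 CPM (SD, n = 3) in parental and 24.1 ± 0.14 CPM (SD, n = 3) in mutant cells, and every mutant library was above every parental one. The fold change of 2.77, or 1.47 on the log2 scale with a standard error of 0.19 (edgeR, adjusted p = 1.17e-05), was under the 3-fold threshold. Parental replicate 3 was the highest of its group, and without it the log2 fold change was 1.65, past the threshold. HOTAIR (ENSG00000228630, chr12:54356092-54368740 on the minus strand) had 1, 4 and 0 counts in parental and 7, 1 and 1 counts in mutant libraries. These levels are near the floor in both groups, and no difference was detectable at this depth.

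HOTTIP overlaps HOXA13 on the opposite strand, and HOTAIR overlaps HOXC11 in the same way. The kit's standard protocol does not keep the strand, so reads from such a pair cannot be told apart where the genes overlap. HOXA13, for the homeobox protein of the most distal body regions, rose from 7.49 ± 1.93 to 29.5 ± 2.14 CPM (SD, n = 3 each), which is 1.97 ± 0.20 (SE) on the log2 scale. HOXC11 had 1, 8 and 7 counts in parental and 6, 8 and 7 counts in mutant libraries and was not tested.

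Of 15 listed genes of the HOXA and HOXC clusters, EVX1 included, 12 were tested, of which 2 (HOXA13 and HOXC8) were up-regulated and 1 (HOXC5) was down-regulated. The shares, 16.7% and 8.33%, stand beside 28.6% and 17.6% of all tested genes. The median log2 fold change was 0.01. HOXC8 had 0, 0 and 3 counts in parental and 33, 18 and 18 counts in mutant libraries. HOXC5 fell from 1.97 ± 0.78 to 0.31 ± 0.13 CPM (SD, n = 3 each). Without parental replicate 2 or without parental replicate 3, 2 genes were down-regulated. Of 11 tested protein-coding genes within 100 kb of HOTTIP, 4 were up-regulated, which were HOXA2, HOXA5, HOXA6 and HOXA13, and 0 were down-regulated. In this window the shares were 36.4% and 0.0%. Without mutant replicate 3, 2 of the 11 were up-regulated, and without parental replicate 2 or without parental replicate 3, 3 were up-regulated and 1 was down-regulated.

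Other lncRNA genes of the HOX clusters moved in both directions. Of 16 listed, 10 were tested, 2 were up-regulated and 2 were down-regulated. That is 20.0% each way, beside 28.6% and 17.6% of all tested genes. The median log2 fold change was -0.42, which is 0.51 with scaling by library totals. HOXA11-AS, antisense to HOXA11, fell from 32.4 ± 3.11 to 9.33 ± 0.38 CPM (SD, n = 3 each), which is -1.79 ± 0.16 (SE) on the log2 scale. HOXD-AS2 had 37, 84 and 33 counts in parental and 2, 5 and 1 counts in mutant libraries. HOXB-AS2 had 1, 1 and 10 counts against 70, 45 and 37, and HAGLR, from the HOXD cluster, had 3, 11 and 4 counts against 54, 39 and 35. Leaving out parental replicate 1 or 3, or mutant replicate 1 or 2, left 1 up-regulated gene in place of 2.

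The imprinted lncRNAs of 11p15.5 moved in opposite directions. H19 (ENSG00000130600, chr11:2016396-2025782 on the minus strand) had 13310, 11041 and 11011 counts in parental replicates 1 to 3 and 5202, 4553 and 4174 counts in the mutant libraries. Its mean level fell from 789.1 ± 103.2 CPM (SD, n = 3) to 150.8 ± 8.38 CPM (SD, n = 3), and the highest mutant library was under the lowest parental one. The level was 5.23-fold lower, a log2 fold change of -2.39 with a standard error of 0.14 (edgeR, adjusted p = 1.12e-08). By counts among lncRNA genes, H19 ranked 1, 2 and 2 in parental cells and fell to ranks 5, 5 and 6 in the mutant libraries. Its share of lncRNA counts was 8.37% to 10.6% and 1.76% to 1.94%, respectively. Scaling by library totals left a log2 fold change of -1.46 and length and GC offsets one of -0.79, both under the 3-fold threshold. TPM divides the deposited counts by length before scaling each library to 1 common total. By this measure, the H19 level was 333.9 ± 43.95 in parental and 166.8 ± 12.58 in mutant cells (SD, n = 3 each).

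KCNQ1OT1 (ENSG00000269821, chr11:2618538-2721233 on the minus strand) had 21.5, 12.06 and 21.42 estimated counts in parental and 483, 335 and 343 in mutant libraries. Its mean level rose from 1.21 ± 0.29 CPM (SD, n = 3) to 12.4 ± 0.75 CPM (SD, n = 3), with all mutant libraries above all parental ones. The fold change was 10.2, or 3.35 on the log2 scale with a standard error of 0.24 (edgeR, adjusted p = 5.64e-08). The deposited gene length of 91667 bases is the largest of the 9, and with an offset for gene length the log2 fold change was 1.31, under the threshold, and 0.80 with length and GC offsets.

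KCNQ1OT1 lies within KCNQ1, a potassium channel gene, on the opposite strand, so that their reads cannot be told apart in the overlap. KCNQ1 moved against it, from 33.7 ± 3.24 to 10.1 ± 1.02 CPM (SD, n = 3 each), which is -1.74 ± 0.16 (SE) on the log2 scale. The KCNQ1 value was -0.82 with scaling by library totals and -0.50 with length and GC offsets, both under the 3-fold threshold. With the length offset alone it was -1.83, past the threshold. Per kilobase, the KCNQ1OT1 level was 0.001 to 0.00143 times the KCNQ1 level in parental libraries and 0.0408 to 0.0462 times in mutant libraries.

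Of 11 tested neighbours in the 11p15.5 imprinted region, 0 were up-regulated and 7 were down-regulated, with a median log2 fold change of -1.74. The shares, 0.0% and 63.6%, stand beside 28.6% and 17.6% of all tested genes. CD81, a tetraspanin gene, fell from 813.4 ± 54.0 to 213.2 ± 18.6 CPM, PHLDA2, a maternally expressed growth restrainer of the placenta, from 445.7 ± 44.4 to 61.7 ± 7.6 CPM, and NAP1L4, a histone chaperone gene, from 431.1 ± 77.5 to 136.1 ± 1.85 CPM (SD, n = 3 each). TSSC4 fell from 261.2 ± 47.5 to 25.7 ± 1.23 CPM (SD, n = 3 each). CDKN1C, the cyclin-dependent kinase inhibitor silenced on the KCNQ1OT1-expressing chromosome, had a log2 fold change of -1.42 ± 0.16 (SE) and did not reach the 3-fold threshold. IGF2, the growth factor gene that shares enhancers with H19, had 120, 83 and 137 counts in parental and 179, 121 and 149 in mutant libraries, a log2 fold change of -0.63 ± 0.21 (SE; edgeR, adjusted p = 0.015). Per kilobase, H19 was 54.1 to 89.6 times the IGF2 level in parental and 18.9 to 25.3 times in mutant libraries. Scaling by library totals left 3 down-regulated neighbours, and length and GC offsets left 0, with 1 up-regulated.

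**Figure D2:**
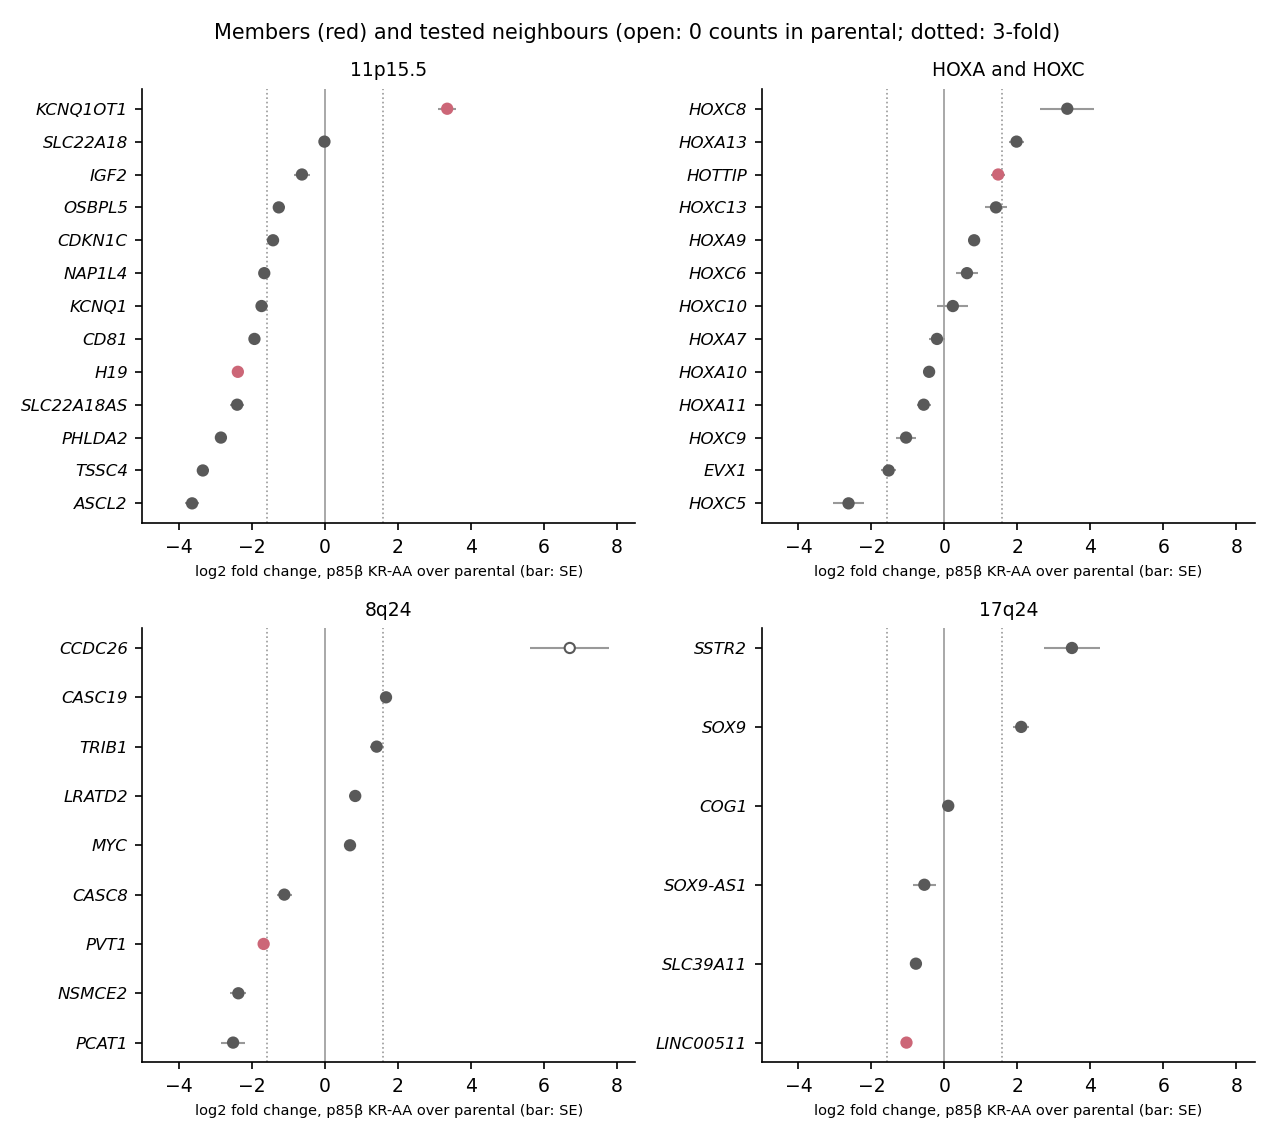
Log2 fold change of p85β KR-AA over parental cells (points) with its standard error (bars) for tested lncRNAs of the named set (red) and their listed neighbours (grey) in 4 regions. At 11p15.5, KCNQ1OT1 at 3.35 lies to the right of every neighbour, while H19 at -2.39 lies among the 7 down-regulated ones. The open point, CCDC26, had 0 counts in every parental library, so its position depends on the prior count.

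MEG3 (ENSG00000214548, chr14:101245747-101327368 on the plus strand), the imprinted lncRNA of 14q32, had 0, 0 and 1 counts in parental and 0, 1.96 and 0 counts in mutant libraries. It was not detectable above the floor in either group. DLK1, the paternally expressed Notch ligand gene of this region, had 0, 0 and 1 counts in parental and 3, 0 and 0 counts in mutant libraries. The region's 3 tested genes were BEGAIN, which rose from 7.19 ± 1.55 to 98.2 ± 8.16 CPM (SD, n = 3 each), and DIO3 and its antisense lncRNA DIO3OS, which fell from 7.64 ± 1.07 to 0.96 ± 0.52 CPM and from 4.90 ± 1.52 to 0.79 ± 0.18 CPM (SD, n = 3 each). DIO3, for an enzyme that inactivates thyroid hormone, and BEGAIN, for a postsynaptic protein, lie at the 2 ends of the region.

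Imprinted genes of other regions were counted in the same way. Of 35 listed, 23 were tested, 14 were up-regulated and 2 were down-regulated, or 60.9% and 8.7% beside 28.6% and 17.6% of all tested genes. Some of the 14 share a region, as SNRPN and SNHG14 do, so they are not independent of each other. The median log2 fold change, 2.03, includes genes with 0 parental counts, whose fitted values depend on the prior count. SNRPN and SNHG14, the paternally expressed genes of the Prader-Willi region, were nearly absent from parental cells. SNRPN had 0 counts in every parental library and 48.5 ± 2.55 CPM (SD, n = 3) in mutant cells, and SNHG14 had 0, 1 and 0 counts and 35.2 ± 1.46 CPM (SD, n = 3). IGF2R, for the receptor that clears IGF2, rose from 56.5 ± 26.8 to 277.9 ± 31.8 CPM and MEST from 9.31 ± 2.03 to 30.7 ± 0.42 CPM (SD, n = 3 each). TP73, of the p53 family, fell from 28.3 ± 6.0 to 7.7 ± 0.84 CPM (SD, n = 3 each) and KLF14 had 14 counts in each parental library and 4, 9 and 3 counts in the mutant libraries. With length and GC offsets, 8 were up-regulated and 1 was down-regulated, beside 2709 and 1137 of 15902 genes tested at that setting. With at least 10 counts in every library, which removes the genes silent in parental cells, 5 and 1 of 13 passed. Among all genes tested with that filter, 2898 and 2100 of 12693 passed.

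Of the lncRNAs often raised in tumours, PVT1 (ENSG00000249859, chr8:128806772-129199347 on the plus strand) had 833, 915 and 829 counts in parental and 684, 508 and 484 counts in mutant libraries. Its mean level fell from 57.7 ± 8.01 CPM (SD, n = 3) to 18.0 ± 0.58 CPM (SD, n = 3), without overlap. The level was 3.20-fold lower, a log2 fold change of -1.68 with a standard error of 0.15 (edgeR, adjusted p = 3.92e-07). This value lies near the 3-fold threshold, and was -0.75 with scaling by library totals, which is under it. It was also under the threshold with upper quartile scaling (-1.49), at least 10 counts in every library (-1.48) and the length offset (-1.35). In TPM, the PVT1 level was 23.3 ± 0.75 in parental and 19.1 ± 0.76 in mutant cells (SD, n = 3 each).

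MYC, the oncogene upstream of PVT1, did not move with it. MYC had 2135, 1415 and 2317 counts in parental and 7618, 5771 and 5910 counts in mutant libraries, a log2 fold change of 0.69 ± 0.14 (SE) that did not pass the threshold, and one of 1.60 that did with scaling by library totals. Per kilobase, the PVT1 level was 0.2 to 0.361 times that of MYC in parental libraries and 0.0457 to 0.0501 times in mutant libraries. Of 8 tested neighbours at 8q24, 2 were up-regulated and 2 were down-regulated, or 25.0% each way beside 28.6% and 17.6% of all tested genes. CASC19, a lncRNA gene close to the CCAT1 locus, rose from 7.35 ± 1.13 to 23.4 ± 1.2 CPM, whereas PCAT1 fell from 6.98 ± 2.09 to 1.2 ± 0.46 CPM and NSMCE2, a SUMO ligase gene, from 35.4 ± 9.88 to 6.81 ± 0.97 CPM (SD, n = 3 each). CCDC26 had 0 counts in every parental library and 19, 16 and 17 counts in mutant libraries. Without parental replicate 1, 1 neighbour was up-regulated in place of 2. With scaling by library totals, 5 were up-regulated and 0 were down-regulated, and with length and GC offsets 0 and 2, with a median log2 fold change of -0.14 in place of 0.76. Without parental replicate 3, 3 were up-regulated.

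LINC00511 (ENSG00000227036, chr17:70286232-70636611 on the minus strand) had 721, 808 and 890 counts in parental and 904, 752 and 761 counts in mutant libraries. The raw counts of the 2 groups overlapped, while the TMM-scaled levels, 53.9 ± 5.55 CPM (SD, n = 3) and 26.2 ± 1.53 CPM (SD, n = 3), did not. The log2 fold change was -1.04 with a standard error of 0.14 (edgeR, adjusted p = 1.95e-05), under the 3-fold threshold. With scaling by library totals it was -0.11 (adjusted p = 0.467 in edgeR, the highest of a range from 2.71e-12 over 14 settings). In TPM, which divides the deposited counts by length before scaling each library to 1 common total, the level was 14.2 ± 1.45 (SD, n = 3) in parental and 18.0 ± 0.99 (SD, n = 3) in mutant cells, the opposite direction. LINC00511 also overlaps the lncRNA gene ENSG00000263680 on the opposite strand, whose mean count was 3.49 in parental and 29.3 in mutant libraries. SOX9, the transcription factor gene of intestinal progenitor cells nearby on 17q24, rose from 50.9 ± 17.2 to 218.8 ± 9.28 CPM (SD, n = 3 each), which is 2.10 ± 0.22 (SE) on the log2 scale. Of 5 tested neighbours, 2 (SOX9 and SSTR2) were up-regulated and 0 were down-regulated, and SSTR2 had 0, 0 and 2 counts in parental and 17 in each mutant library. With length and GC offsets, 1 was up-regulated and 1 was down-regulated, and with DESeq2, the length offset or at least 10 counts in every library, 1 was up-regulated.

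Levels were compared between the lncRNAs as CPM per kilobase of deposited gene length. In parental cells, H19 was highest at 336.1 ± 43.96 (SD, n = 3), followed by PVT1 at 23.6 ± 3.28, LINC00511 at 14.3 ± 1.47 and HOTTIP at 2.6 ± 0.63. NEAT1 at 0.80 ± 0.12 and MALAT1 at 0.76 ± 0.084 had overlapping ranges, as did HOTAIR and KCNQ1OT1, and MEG3 was lowest. In mutant cells, H19 was again highest at 64.2 ± 3.57 (SD, n = 3), but NEAT1 at 26.3 ± 0.96 and MALAT1 at 11.5 ± 0.89 came next. PVT1 at 7.36 ± 0.24, HOTTIP at 7.21 ± 0.043 and LINC00511 at 6.95 ± 0.41 followed, with overlapping ranges, then KCNQ1OT1 at 0.136 ± 0.0082, HOTAIR and MEG3. By this measure, NEAT1 moved from rank 723 to rank 22 of 14683 lncRNA genes, MALAT1 from 753 to 47, HOTTIP from 307 to 83 and KCNQ1OT1 from 3878 to 2335, while H19 went from 3 to 11, PVT1 from 25 to 81 and LINC00511 from 57 to 87.

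The up-regulated lncRNAs were the long ones, and they were also those with the lowest GC content. KCNQ1OT1, NEAT1 and MALAT1 have deposited lengths of 91667, 22743 and 8708 bases, and the 4 other tested lncRNAs have lengths of 2348 to 3766 bases. The GC content of KCNQ1OT1, NEAT1 and MALAT1 was below that of each of the 4 others, among which H19 was highest at 63.6%. Fold changes also rose with length across the table. The median log2 fold change was -1.12 over 1593 tested genes of up to 1000 bases and 2.41 over 1012 genes longer than 8000 bases, of which 65.4% were up-regulated and 1.88% were down-regulated. Among the 45 tested lncRNA genes longer than 8000 bases, the median was 2.44, and 60.0% were up-regulated and 0.0% were down-regulated. The NEAT1 value of 5.04 and the MALAT1 value of 3.92 were above these medians. With an offset for gene length, NEAT1 was at 2.68, MALAT1 at 2.19, HOTTIP at 1.34, H19 at -2.00, PVT1 at -1.35 and LINC00511 at -1.39. The length offset was fitted on genes with at least 10 counts in every library. It is meant to take out differences between libraries that follow gene length, whatever their source. With a GC offset added, H19 was at -0.79 and MALAT1 at 1.56, both under the 3-fold threshold. The separate parts of length and GC content in these differences were not tested.

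**Figure D3:**
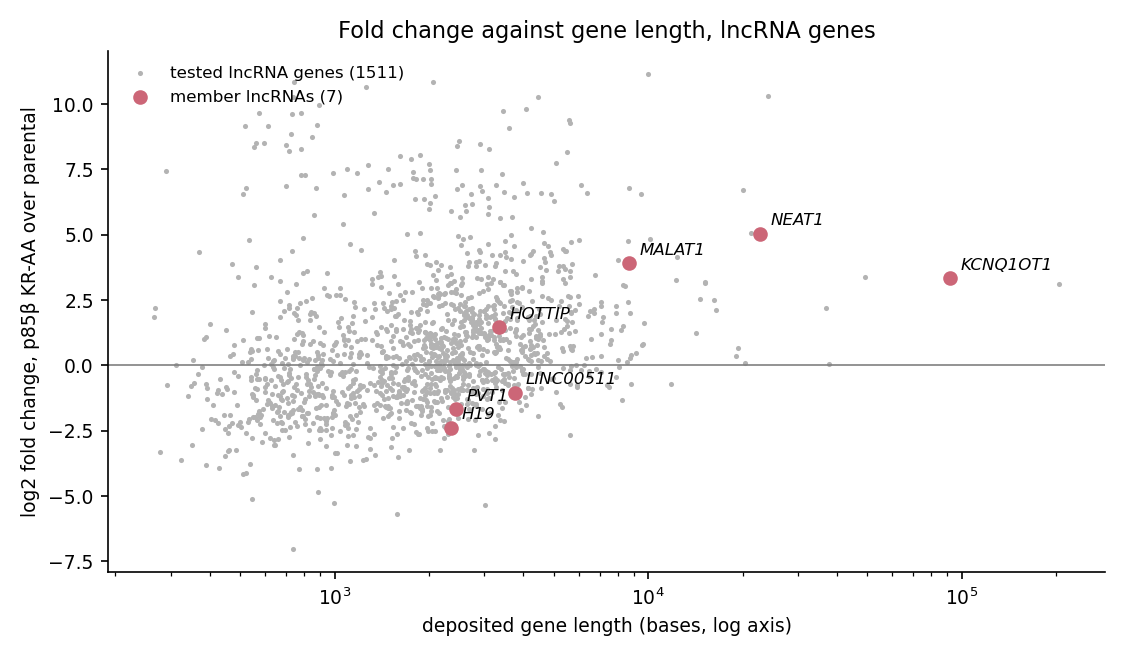
Log2 fold change of p85β KR-AA over parental cells against deposited gene length in bases (log axis) for 1511 tested lncRNA genes (grey) and the 7 named lncRNAs (red). KCNQ1OT1, NEAT1 and MALAT1 lie at the long, raised end, and H19, PVT1 and LINC00511 lie under 0 at lengths of 2348 to 3766 bases.

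The sign of all 7 held in 98 fits under 14 settings, while the sizes moved. Scaling by library totals raised the median of all tested genes from 0.32 to 1.24 on the log2 scale, and NEAT1 lay 4.72 above that median with either scaling. Length and GC offsets moved NEAT1, MALAT1, KCNQ1OT1 and H19 further than library totals did. Relative to the median of all tested genes in the same fit, over all settings, NEAT1 was between 2.15 and 5.13 above and MALAT1 between 1.34 and 4.01 above, while H19 was between 1.01 and 2.84 below and PVT1 between 1.59 and 2.12 below. Of the 7, NEAT1 alone was past both thresholds in each of the 14 settings. With length and GC offsets, NEAT1 was at 2.37 and MALAT1 at 1.56.

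**Figure D4:**
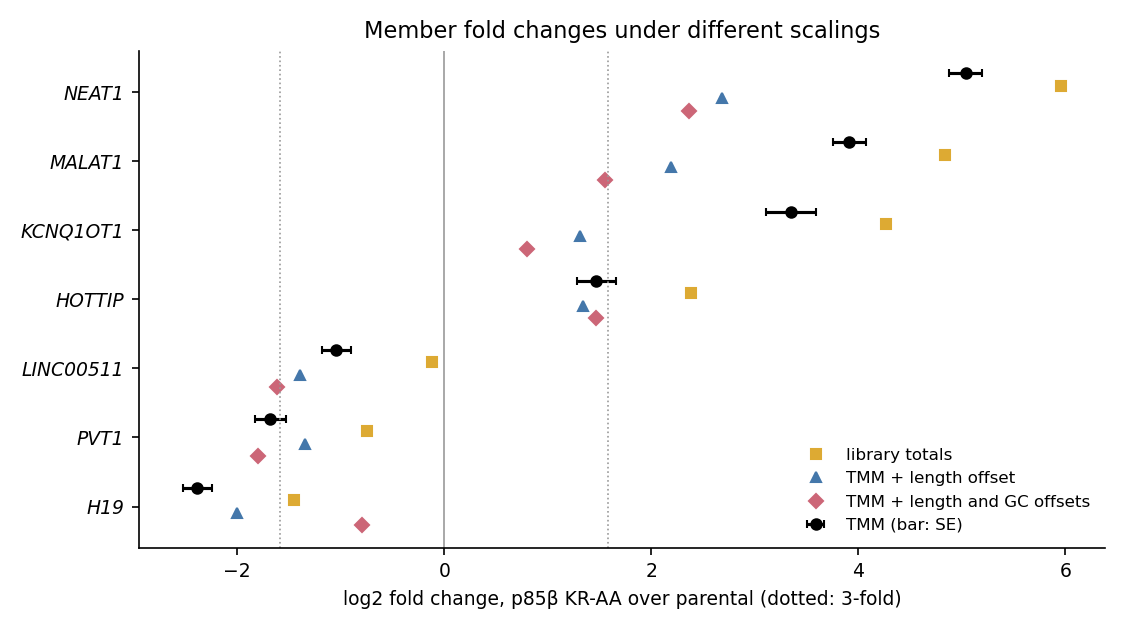
Log2 fold change of p85β KR-AA over parental cells for the 7 tested lncRNAs with TMM scaling (black, bar: standard error), scaling by library totals (yellow), an offset for gene length (blue) and length and GC offsets (red). Each lncRNA keeps its side of 0, and NEAT1 stays to the right of the dotted 3-fold line in all 4.

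Other well known lncRNA genes were read from the same fit. Of 55 listed, 45 were tested, 11 were up-regulated and 4 were down-regulated, with a median log2 fold change of 0.61. The shares, 24.4% and 8.89%, stand beside 28.6% and 17.6% of all tested genes. TUG1, which GENCODE lists as protein-coding and which is known for nuclear retention and polycomb contacts, rose from 4.83 ± 1.5 to 60.0 ± 9.74 CPM, and LUCAT1, a stress-induced lncRNA gene, from 5.34 ± 0.72 to 46.5 ± 1.01 CPM (SD, n = 3 each). FTX, of the X inactivation centre, rose from 0.78 ± 0.076 to 7.54 ± 0.45 CPM (SD, n = 3 each). CASC15 had 0 counts in every parental library and 6.81 ± 0.33 CPM (SD, n = 3) in mutant cells. SRA1, a steroid receptor coactivator gene, fell from 118.1 ± 11.1 to 21.5 ± 2.25 CPM, CHASERR from 21.9 ± 5.49 to 6.84 ± 0.87 CPM and TINCR, known from epidermal differentiation, from 10.7 ± 1.06 to 3.48 ± 0.31 CPM (SD, n = 3 each). RN7SK, the small nuclear RNA that holds P-TEFb inactive, had 79, 313 and 76 counts in parental and 82, 80 and 131 counts in mutant libraries, so that the ranges of the groups overlapped and parental replicate 2 stood above the other libraries. Without parental replicate 2 or without mutant replicate 2, 2 genes of this list were down-regulated in place of 4, and with scaling by library totals 21 were up-regulated and 0 were down-regulated. With length and GC offsets, 8 were up-regulated and 7 were down-regulated.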

How the data were processed

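Long noncoding RNA genes were read from RNA-seq of 3 DLD1 parental and 3 mutant libraries, grouped by the genotype in the labels. The source names of 2 of the 3 mutant libraries number the second changed residue differently from their titles and genotype, which all read K477A/R478A and were followed. Estimated counts were deposited by the authors for each Ensembl gene, beside a gene length, and the submitters' processing notes name HISAT2 2.1.0, RSEM 1.3.1, DESeq2 1.24.0 and the build hg18. The methods describe trimming with SeqPrep and Sickle. Estimated counts were rounded to whole numbers. Tests used edgeR 4.0.16 (R 4.3.3) without covariates: filterByExpr (minimum count 10, minimum total 15), TMM, the quasi-likelihood F test and Benjamini-Hochberg adjustment over all 16059 tested genes. The thresholds, 3-fold and an adjusted p of 0.01, are those of the study's methods. Each standard error comes from the F statistic and the fold change.

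GENCODE release 44, lifted to GRCh37, gave symbols, positions and gene types for 56745 of 58884 identifiers. The labels' hg18 differs from it, so positions are those of the annotation. Of 16059 tested genes, 15902 had a GC value. Start regions and miRNAs are from RefSeq GRCh38.p14, where 5 of the lncRNAs had a start region.

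The lncRNAs and the gene lists were chosen with earlier results of these data known. Named genes are the chosen lncRNAs, up to 4 genes per list and direction with the highest mean CPM among those past the thresholds, and set neighbours. Genes of the 100 kb windows were chosen after their values were seen. Alternatives were DESeq2 1.42.0, library totals, upper quartile, other filters and thresholds, the replicate block, each library left out, and length and GC offsets (splines with 5 degrees of freedom). Same-numbered libraries deviated with correlations of -0.136, 0.119 and -0.0447. The code was tested on simulated counts. ChIP-seq and blots were not analysed here.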

Additional observations from a re-analysis of the deposited data

How the results depend on the processing

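Depth limits HOTAIR and MEG3, which have 7 counts or fewer in every library, and overlap with antisense genes limits HOTTIP, KCNQ1OT1 and HOTAIR. Each of the 7 tested lncRNAs had the same sign in all of its 14 settings, while 9 of 98 fits fell below the thresholds and 5 rose past them, and the cause was not tested except where a setting itself changes the genes tested. Up-regulated and down-regulated genes numbered 4597 and 2825 of all tested genes, 3 and 2 of the named lncRNAs and 37 and 22 of the list genes. With library totals, there were 7052 and 973 of all tested genes, 0 down-regulated named lncRNAs, and 56 and 7 list genes. With length and GC offsets, there were 2709 and 1137 of all tested genes, 1 up-regulated named lncRNA (NEAT1) and 23 up-regulated list genes. With at least 10 counts in every library, fewer genes were tested, of which 2898 were up-regulated and 2100 were down-regulated. At that setting, 1 named lncRNA (H19) was down-regulated, and 22 and 13 list genes passed. When the fold change itself was tested against 3, there were 2974 and 1779 genes, 1 down-regulated named lncRNA, and 20 and 12 list genes. With an adjusted p under 0.05 and no fold threshold, there were 7373 and 5738 genes and 61 and 52 list genes. Upper quartile scaling and the offset for gene length each left 1 down-regulated named lncRNA. HOTTIP passed the thresholds with library totals (2.38), upper quartile scaling (1.66), at least 10 counts in every library (1.67) and without parental replicate 3 (1.65). LINC00511 passed them with length and GC offsets (-1.61).

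Leaving out 1 library at a time gave 4404 to 4783 up-regulated and 2774 to 2992 down-regulated genes, 3 to 4 and 2 named lncRNAs, and 33 to 38 and 20 to 25 list genes. With the replicate block, fitted with robust moderation, there were 4618 and 2823 genes, 3 and 2 named lncRNAs, and 38 and 21 list genes, and the log2 fold change was 5.05 for NEAT1 and -2.38 for H19. No pairing by replicate number was seen, as the correlations of same-numbered libraries were -0.136, 0.119 and -0.0447, with a mean of 0.00967 for other numbers. The labels do not say whether same-numbered libraries were prepared together, and these values cannot show it. The fit without the filter on low counts also used robust moderation, a choice made after seeing the data. As TPM in place of CPM per kilobase, 8 of 18 levels moved by more than 1 SD, all in mutant cells, and LINC00511 changed direction.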
